A study of Homo sapiens with 12 samples.

Results

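The vehicle-treated arm of C4.2B cells was described on its own, from the columns of the raw gene count table that carry the DMSO libraries A, B and C. These were 3 of 12 libraries. The other arms of the study had received an AKT inhibitor (AKTi), an EZH2 inhibitor (EZH2i) or their combination, and none of them was used here. The scheme of the study was 6 days of pretreatment with the EZH2 inhibitor, seeding in triplicate and 24 hours of combined dosing in charcoal-stripped serum, which is depleted of steroids, and DMSO was its vehicle arm. For counting assays the methods name DMSO as the pretreatment of this arm, whereas those for RNA sequencing name the EZH2 inhibitor alone. Polyadenylated RNA was sequenced. The libraries came from plates of 1 seeding, so the spread between them may be technical, and no comparison between conditions was made.

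C4.2B is a castration-resistant prostate cancer line that was derived from LNCaP, a line grown from a lymph node metastasis, through passage in mice. LNCaP and its derivatives are known for a luminal epithelial phenotype and for active PI3K signalling. Luminal cells of the prostate secrete kallikreins and other fluid proteins under control of androgens and of lineage factors such as FOXA1 and HOXB13. Each gene's level was expressed as reads per 1000 bases of deposited gene length and per 1000000 counted reads (RPKM), and a gene was taken as expressed at 1 RPKM or more in every library. A gene was taken as silent at 0 counts in all 3 libraries, and 3 counts or fewer in each library was treated as the floor of detection. Orders between genes rest on the deposited lengths, and some turned with the length of the canonical transcript. The level with that length is given for part of these, so an order without it was not shown to hold with both lengths.

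Library totals were 16005555 counts in A, 14565714 in B and 22276417 in C. Of 19951 protein-coding genes, 9828 (49.3%) were expressed and 4303 (21.6%) were silent, while 6105 (30.6%) did not exceed the floor. Protein-coding genes took 97.2% ± 0.157 (SD, n = 3) of all counts. Only 386 of them had a mean of 100 RPKM or more, and these took 33.5% ± 0.918 of the protein-coding counts, whereas the 5764 genes between 1 and 10 RPKM took 17.0% ± 0.256. The median level of the expressed nuclear genes was 8.19 RPKM, with quartiles at 3.70 and 19.1 RPKM. Among 7629 lincRNA genes 313 were expressed (4.1%), and among 5583 antisense genes 376 were (6.73%).

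**Figure D1:**
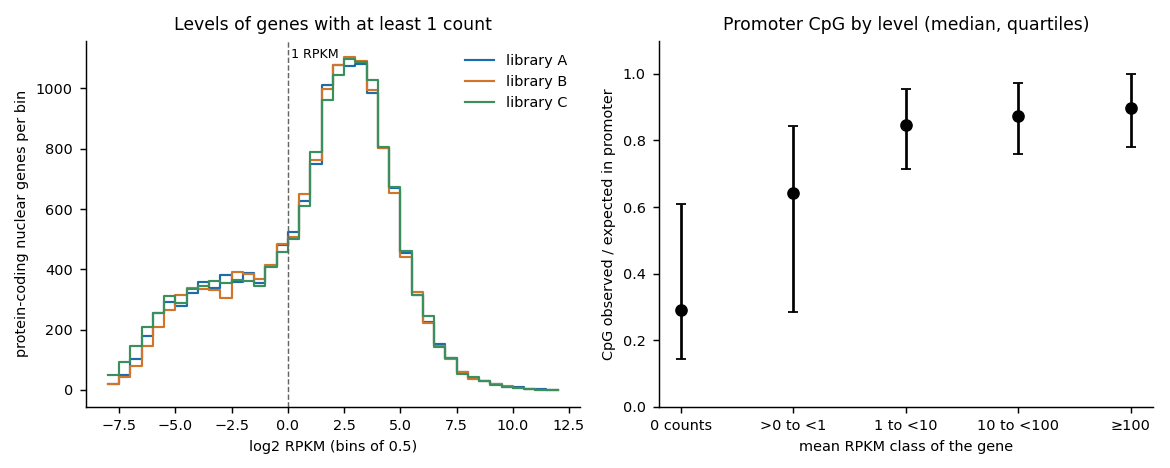
Left, the number of protein-coding nuclear genes (y axis) in bins of log2 RPKM (x axis), drawn as 1 line for each library over genes with at least 1 count. The 3 lines nearly coincide, with the main peak to the right of the dashed line at 1 RPKM and a shoulder to its left. Right, the ratio of observed to expected CpG dinucleotides in the promoter (y axis, median as a point and quartiles as bars) by the gene's mean RPKM class (x axis), which runs from 0.289 in silent genes to 0.899 in genes at 100 RPKM or more.

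The promoters of genes at the ends of this range differed in base composition. CpG dinucleotides are the sites of DNA methylation, and CpG-dense promoters are typical of broadly expressed genes. RefSeq promoter windows of GRCh38.p14, from 250 bases before to 50 bases after the start, were matched to 15485 of 19938 nuclear protein-coding genes. The 2961 windows of silent genes held a median of 5 CpG and an observed to expected ratio of 0.289 (quartiles 0.144 and 0.61). The 312 windows of genes at 100 RPKM or more held a median of 26 CpG and a ratio of 0.899 (quartiles 0.781 and 1.0). A ratio above 0.6 was found in 25.6% of the silent class and in 94.2% of the highest class. The TATA hexamer, TATAAA on either strand, was present in 21.3% of silent windows, in 4.73% at 1 to 10 RPKM and in 10.3% at 100 RPKM or more, against 9.73% of all windows.

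Promoters from different corners of this relation are given as the 250 bases upstream of the RefSeq start, from 5′ to 3′ on the strand of the gene, with each CpG in capitals. EEF1A1, an elongation factor of translation, had a very high level and a CpG-rich promoter (chr6:73521033-73521282, minus strand). KLK3, which encodes prostate-specific antigen, was highly expressed from a promoter with almost no CpG (chr19:50854665-50854914, plus strand). PAGE1, a gene normally restricted to germ cells, lies on the X chromosome (chrX:49695985-49696234, minus strand). GSTP1, a glutathione transferase known for promoter methylation in prostate cancer, was at the floor beneath the densest CpG of the set (chr11:67583562-67583811, plus strand).
EEF1A1: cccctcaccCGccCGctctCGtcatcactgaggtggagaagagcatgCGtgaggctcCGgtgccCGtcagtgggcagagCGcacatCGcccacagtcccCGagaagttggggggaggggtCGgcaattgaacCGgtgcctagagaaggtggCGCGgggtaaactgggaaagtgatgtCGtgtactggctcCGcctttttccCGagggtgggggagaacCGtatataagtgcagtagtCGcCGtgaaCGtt
KLK3: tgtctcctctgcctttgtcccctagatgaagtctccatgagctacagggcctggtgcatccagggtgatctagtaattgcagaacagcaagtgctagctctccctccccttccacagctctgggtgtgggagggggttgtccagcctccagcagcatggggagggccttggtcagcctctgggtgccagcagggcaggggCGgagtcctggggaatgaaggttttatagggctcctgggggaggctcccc
PAGE1: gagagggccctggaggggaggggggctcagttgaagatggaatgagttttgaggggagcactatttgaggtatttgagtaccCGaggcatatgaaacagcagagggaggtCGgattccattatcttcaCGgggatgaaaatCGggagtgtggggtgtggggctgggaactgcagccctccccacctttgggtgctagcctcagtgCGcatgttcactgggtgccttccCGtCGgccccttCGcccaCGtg
GSTP1: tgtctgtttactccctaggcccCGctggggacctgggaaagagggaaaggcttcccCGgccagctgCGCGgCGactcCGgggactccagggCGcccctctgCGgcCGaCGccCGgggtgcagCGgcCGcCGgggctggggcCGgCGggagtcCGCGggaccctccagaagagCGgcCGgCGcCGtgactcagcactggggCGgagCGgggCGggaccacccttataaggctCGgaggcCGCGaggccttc

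In the whole 300-base windows the CpG count was 24 for EEF1A1, 2 for KLK3, 13 for PAGE1 and 36 for GSTP1, and the observed to expected ratio was 0.891, 0.0719, 0.524 and 0.879, in the same order. KLK3, which ranked 99 among nuclear protein-coding genes, thus had fewer CpG than the median silent promoter, and GSTP1 more than the median promoter of the highest class. The KLK3 window also held the TATA hexamer and the hexamer AGAACA, part of the element that steroid receptors bind, 170 bases before the start. The EEF1A1 window held AGAACA as well, 25 bases after the start. AGAACA on either strand was present in 11.0% of all windows, in 16.1% of the silent class and in 10.3% of the highest class. It was present in 3 of the 17 windows that could be matched for the androgen-responsive list.

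The most abundant nuclear messages were those of the translation machinery, chaperones and housekeeping metabolism. EEF1A1 had 2838, 2757 and 2629.8 RPKM in A, B and C, the highest of any nuclear gene. Of the 20 highest protein-coding nuclear genes, 13 encoded ribosomal proteins, among them RPL41 at 1952 ± 121 RPKM and RPL13A at 1914 ± 139 RPKM (SD, n = 3). With canonical lengths RPS18 (5335 RPKM) exceeded EEF1A1 (4643 RPKM), and RPL13A (4024 RPKM) exceeded RPL41 (3142 RPKM). The remainder were EEF1A1, EEF2 (1397 ± 70.6 RPKM), the chaperones HSP90AB1 (1154 ± 68.1 RPKM) and HSPA8 (834 ± 11.6 RPKM), the glycolytic enzyme GAPDH (1032 ± 16.2 RPKM), the ATP synthase subunit ATP5F1B (962 ± 24.4 RPKM) and ACTB (790 ± 32.7 RPKM). The 5 highest non-coding nuclear genes were RPS28P7, RPL9P9, RPS2P5, RPL39P3 and AC116533.1, from 1452 to 416 RPKM. The first 4 are named as pseudogenes of ribosomal proteins, so their reads may belong to near-identical expressed copies, and their levels are uncertain.

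The table assigns 1548 protein-coding genes to transcription factor families. Of these 810 were expressed (52.3%, close to the 49.3% of all protein-coding genes). The highest were the cold-shock protein gene YBX1 (627 ± 26.4 RPKM), CNBP (339 ± 14.5 RPKM) and ATF4 (265 ± 2.77 RPKM), the effector of the integrated stress response. With canonical lengths ATF4 (469 RPKM) exceeded YBX1 (407 RPKM) and CNBP (198 RPKM). Among lineage-related factors HOXB13 ranked 311 and the epithelial ETS factor EHF (111 ± 6.55 RPKM) ranked 327 among nuclear protein-coding genes. Families differed widely. Homeobox genes were expressed in 45 of 191 cases (23.6%), forkhead genes in 13 of 47 (27.7%) and POU genes in 1 of 16 (6.25%). In contrast, 20 of 22 MYB-type genes (90.9%), 10 of 11 E2F genes (90.9%) and 373 of 627 C2H2 zinc finger genes (59.5%) were expressed.

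Luminal markers were broadly expressed. Of 40 luminal genes, 32 were expressed (80.0%, against 49.3% of all protein-coding genes), with a median of 30.7 RPKM. Lineage factors among them were, in order, HOXB13 (115, 108 and 119 RPKM in A, B and C), GATA2 (72.3, 73.1 and 73.9), FOXA1 (69.1, 72.2 and 72.2), SPDEF (45.8, 47.4 and 49.7) and GRHL2 (29.4, 28.7 and 28.3). Every value of SPDEF lay above the highest value of GRHL2. Those of GATA2 also lay above those of FOXA1, but narrowly. The means of GATA2 and FOXA1 differed by an amount of the size of their SDs (0.829 and 1.80 RPKM). With canonical lengths GATA2 (96.4 RPKM) again exceeded FOXA1 (80.8 RPKM).

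Secreted and membrane proteins of luminal cells spanned a wide range. KLK3 (chr19:50854915-50860764) had 278, 268 and 280 RPKM, and FOLH1, which encodes prostate-specific membrane antigen, had 244.5, 247 and 238. STEAP1, which encodes a membrane protein of the prostate cell surface, had 128, 125 and 111 RPKM. The next levels were those of SLC39A6, a zinc transporter gene (62.4, 61.5 and 69.7 RPKM), STEAP2 (52.6, 53.3 and 57.3) and AZGP1 (38.6 ± 3.34 RPKM). With canonical lengths AZGP1 (88.1 RPKM) exceeded STEAP2 (67.9 RPKM) and SLC39A6 (66.6 RPKM). KLK4 was at 35.1 ± 0.543 RPKM, KLK2 at 14.98 ± 0.821, TMPRSS2 at 8.24 ± 0.569, MSMB at 5.53 ± 0.874 and the prostatic acid phosphatase gene, listed as ACPP, at 4.18 ± 0.577 RPKM (SD, n = 3). Of the adhesion and keratin genes, CDH1, which encodes E-cadherin, had 109, 112 and 121 RPKM and KRT18 had 82.0, 79.5 and 89.6. With canonical lengths this order turned, with KRT18 at 191 and CDH1 at 147 RPKM. The partner keratin gene KRT8 was lower than KRT18, at 36.4, 32.8 and 36.1 RPKM.

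Some luminal or prostate cancer genes were not detected. NPY and the ETS factor gene ETV1, which LNCaP is known to carry in rearranged form, had 0 counts in every library, which allows at most 0.224 RPKM for NPY and 0.0214 RPKM for ETV1 at 3 counts in the shallowest library. ERG had 1, 0 and 0 counts, TMEFF2 had 0, 4 and 1, and the keratin gene KRT7 had 1, 4 and 1.

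**Figure D2:**
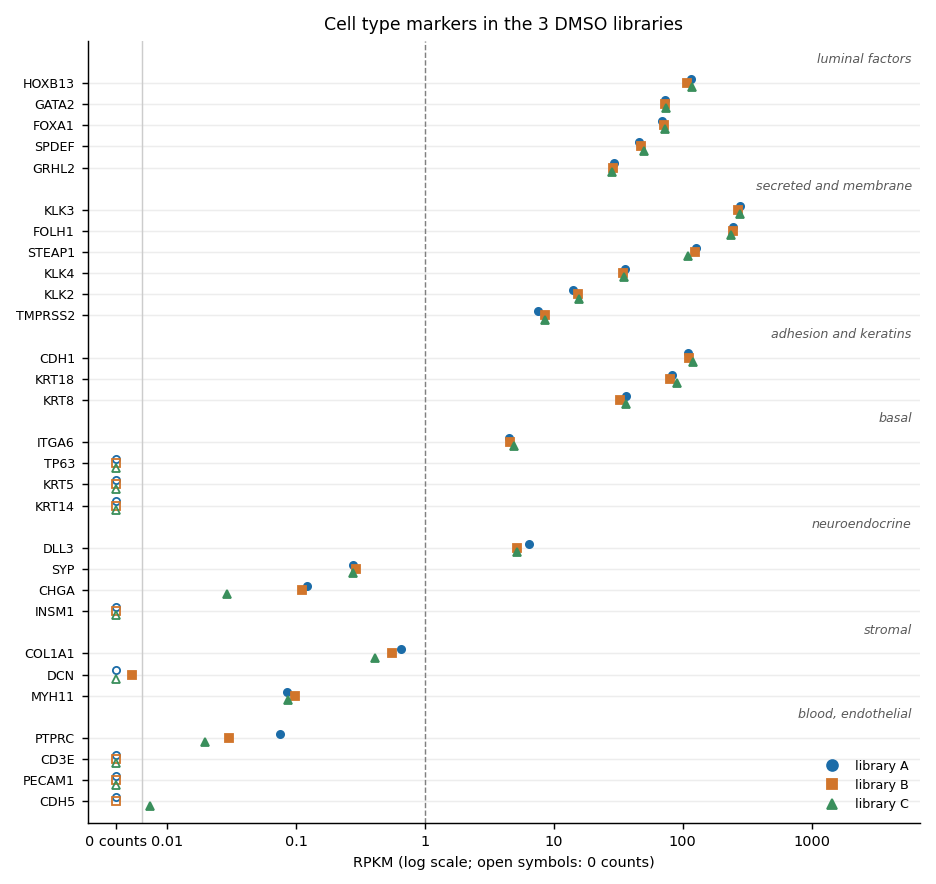
Levels of cell type markers in RPKM (x axis, log scale) by gene (y axis), with 1 symbol for each of the libraries A, B and C and open symbols at the left for 0 counts; the dashed line marks 1 RPKM. The luminal markers drawn, a part of the 40 listed, lie between 7.59 and 280 RPKM. Listed luminal genes that are not drawn include lower ones, such as AMACR (3.32 RPKM), TRPM8 (1.81 RPKM) and NPY (0 counts). TP63, KRT5, KRT14, INSM1, CD3E and PECAM1 have 0 counts in every library.

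Markers of other cell types were at or near 0. Of 12 basal markers only ITGA6, an integrin subunit (4.67 ± 0.209 RPKM), was expressed (8.33%, against 49.3% of all protein-coding genes). TP63, KRT5, KRT14, KRT15, KRT17 and DLK1 were silent, 6 of 12 against 21.6% of all protein-coding genes. Of 18 neuroendocrine markers 2 were expressed (11.1%, against the same 49.3%). These were DLL3, an inhibitory Notch ligand (6.47, 5.17 and 5.20 RPKM), and ONECUT2 (1.09 ± 0.0862 RPKM). CHGB, SOX2, INSM1 and NEUROD1 were silent, 4 of 18 and so a share near the 21.6% of all protein-coding genes. CHGA had 6, 5 and 2 counts. None of 14 stromal, 15 blood and 10 endothelial markers was expressed, against 49.3% of all protein-coding genes. The summed level over each of these lists ran from 1.99 to 2.75 RPKM for stromal, from 0.594 to 0.831 for blood and from 0.628 to 0.861 for endothelial markers. The defining genes DCN, PTPRC, CD3E, HBB, PECAM1 and CDH5 did not exceed 11 counts in any library. The highest values were those of TAGLN (1.39, 1.56 and 0.894 RPKM) and COL1A1 (0.538 ± 0.12 RPKM) among stromal genes, with VWF at 40, 40 and 44 counts.

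Genes of mesenchymal transition showed a split pattern. FN1, which encodes fibronectin, had 55.1, 62.7 and 62.8 RPKM and was far above the rest of the list. SNAI1 was at 2.06 ± 0.518 RPKM and the intermediate filament gene VIM at 1.501 ± 0.193 RPKM. CDH2, ZEB2, TWIST2 and PRRX1 were silent, and ZEB1 had 4, 1 and 2 counts.

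Nuclear receptors are ligand-controlled transcription factors, and 23 of 48 were expressed (47.9%, close to the 49.3% of all protein-coding genes). Among them were ESRRA (38.0 ± 0.914 RPKM), NR2F6 (30.2 ± 1.40 RPKM), RXRA (14.6 ± 0.487 RPKM) and the oxysterol receptor gene NR1H2 (14.2 ± 0.916 RPKM). Of the steroid receptors, the mineralocorticoid receptor gene NR3C2 was at 2.23 ± 0.340 RPKM. ESR1 was silent, and the glucocorticoid receptor gene NR3C1 had only 4, 0 and 2 counts. Silent receptors also included RXRG, NR1H4, NR2E1, NR5A1, NR5A2, NR0B1 and NR0B2.

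Few genes of androgen metabolism were expressed. Of 27 genes 6 were expressed (22.2%, against 49.3% of all protein-coding genes). At or under the floor were 13 of 27, against 30.6% of all protein-coding genes. Silent were 6 of 27, a share near the 21.6% of all protein-coding genes. CYP17A1, which makes the androgen precursors, CYP11B1, HSD3B2, HSD17B3, SULT2A1 and SRD5A2 had 0 counts in all libraries. The 5α-reductase genes SRD5A3 (10.8, 10.1 and 11.2 RPKM) and SRD5A1 (4.44, 4.88 and 5.13 RPKM) were expressed, as were STS (3.48 ± 0.111 RPKM) and, among inactivating enzymes, HSD17B4 (13.4 ± 1.34 RPKM), UGT2B15 (5.57, 6.15 and 6.72 RPKM) and UGT2B17 (1.58 ± 0.185 RPKM). The UGT2B genes are close paralogs, and reads shared between them could have been lost or split.

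Androgen-responsive genes were expressed in 22 of 27 cases (81.5%, against 49.3% of all protein-coding genes), after 24 hours in steroid-depleted serum. They included KLK3, FASN, described with the lipid genes, and SORD, a polyol dehydrogenase, at 107, 103 and 108 RPKM. UAP1, which makes an activated amino sugar, was at 79.0 ± 1.83 RPKM and FKBP5, a co-chaperone of steroid receptors, at 13.8 ± 0.669 RPKM. STEAP4 had 0, 5 and 4 counts and ORM1 had 0, 1 and 0.

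Glycolysis converts glucose to pyruvate and lactate, and most of its steps can be served by several isozymes. Of 37 glycolytic genes 21 were expressed (56.8%, against 49.3% of all protein-coding genes). Silent were 7 of the 37, a share near the 21.6% of all protein-coding genes. At glucose entry SLC2A1 (16.8, 16.3 and 18.0 RPKM) accounted for 90.9% ± 0.338 of the summed level of 5 transporters, while SLC2A3 had 1 count in each library and SLC2A2 none. Both HK1 (20.8, 22.4 and 23.9 RPKM) and HK2 (15.03, 16.9 and 18.9 RPKM), which phosphorylate glucose, were expressed. HK2 made up 43.0% ± 1.06 of the hexokinase level, or 31.8% when lengths of canonical transcripts were used. All of the phosphofructokinase genes were expressed, in the order PFKM (30.6, 28.8 and 35.1 RPKM), PFKP (20.7, 21.7 and 23.5) and PFKL (14.9, 14.9 and 15.2), without overlap between neighbours. With canonical lengths PFKL (46.0 RPKM) exceeded PFKP (40.4 RPKM), so only the lead of PFKM was the same with both lengths.

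The lower part of the pathway was among the most abundant in the cell. TPI1 had 376, 372 and 394 RPKM, ENO1 had 464, 436 and 480, and PGAM1 had 270.3, 260.4 and 270.4. The final steps to pyruvate and lactate were carried by PKM (209, 206 and 216 RPKM) and LDHA (223, 218 and 229 RPKM), with LDHB at 19.1, 18.4 and 22.6. LDHA was 91.8% ± 0.666 of the lactate dehydrogenase level, and ENO1 99.2% ± 0.0761 of the enolase level. The lactate transporter gene SLC16A1 (45.3, 44.1 and 46.1 RPKM) exceeded SLC16A3 (5.01 ± 0.146 RPKM). The tissue-restricted isozymes PGK2, PGAM2, PKLR, LDHC and LDHAL6B were silent, as was SLC2A2.

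**Figure D3:**
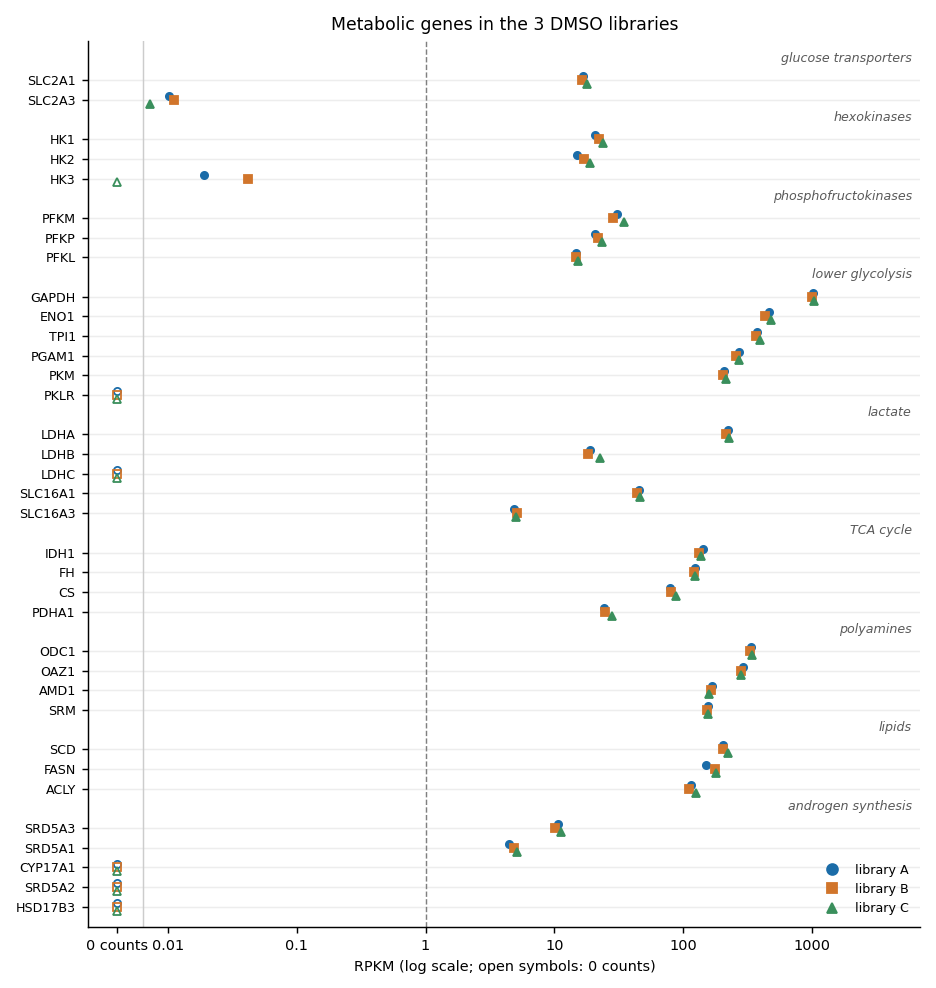
Levels of metabolic genes in RPKM (x axis, log scale) by gene (y axis) in libraries A, B and C, with open symbols at the left for 0 counts and a dashed line at 1 RPKM. LDHA lies at 218 to 229 RPKM and LDHB at 18.4 to 22.6, and CYP17A1, SRD5A2 and HSD17B3 have 0 counts in every library.

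The tricarboxylic acid cycle list had 31 of 37 genes expressed (83.8%, against 49.3% of all protein-coding genes), with a median of 33.8 RPKM. The highest on deposited lengths were IDH1 (138 ± 4.36 RPKM), the cytosolic isocitrate dehydrogenase gene, FH (123 ± 1.90 RPKM), MDH2 (118 ± 4.88 RPKM) and CS (82.4 ± 4.77 RPKM), which encodes citrate synthase. With canonical lengths IDH1 was still first (282 RPKM), followed by MDH2 (198), CS (181) and SDHC (168). DLD (55.6 ± 0.964 RPKM) led the pyruvate dehydrogenase complex, and ME1 (60.5 ± 2.32 RPKM), a malic enzyme, was the highest anaplerotic gene on deposited lengths, and PCK2 was with canonical lengths (91.9 against 61.1 RPKM). PDHA2 was silent. All 13 mitochondrially encoded subunits of the respiratory chain had 78.2 RPKM or more in every library. MT-CO1, a cytochrome oxidase subunit, had 3393, 4939 and 3346 RPKM.

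Anabolic pathways known for their activity in prostate epithelium were highly expressed. Polyamines are abundant in prostatic fluid, and their synthesis starts at ornithine decarboxylase. ODC1 had 335, 331 and 346 RPKM, its antizyme gene OAZ1 had 291, 283 and 281, AMD1 was at 164 ± 3.75 RPKM and SRM at 156 ± 1.29. With canonical lengths OAZ1 (853 RPKM) exceeded ODC1 (404 RPKM). Of 13 polyamine genes 11 were expressed (84.6%, against 49.3% of all protein-coding genes). The catabolic genes SAT1 (6.71 ± 0.145 RPKM) and SMOX (1.12 ± 0.182 RPKM) lay far below the synthetic ones. Of 34 genes of lipid synthesis 32 were expressed (94.1%, against the same 49.3%). SCD, the stearoyl-CoA desaturase gene, had 204, 206 and 224 RPKM, FASN had 151, 177 and 181, and ACLY, which makes cytosolic acetyl-CoA from citrate, had 115, 111 and 127. With canonical lengths FADS2 of the same list (346 RPKM) exceeded SCD (216 RPKM). Zinc and citrate handling was represented by MT2A (94.7 ± 1.44 RPKM), a metallothionein gene, and SLC25A1 (57.9 ± 2.48 RPKM), the mitochondrial citrate carrier gene, whereas MT1E and SLC13A5 were silent.

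The PI3K-AKT pathway, which transmits growth factor signals to mTOR, had 39 of 49 genes expressed (79.6%, against 49.3% of all protein-coding genes). Of the catalytic subunits of class I PI3K, PIK3CB had 17.0, 16.6 and 19.8 RPKM, PIK3CD had 11.7, 11.97 and 11.6, PIK3CA had 1.03, 0.940 and 1.33, and PIK3CG was silent. PIK3CB thus made up 57.9% ± 2.27 of their summed level and PIK3CA 3.57% ± 0.449. AKT1 had 15.7, 17.1 and 17.1 RPKM and AKT2 had 11.0, 10.7 and 11.4, without overlap.

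Below AKT, MLST8 (29.8 ± 0.907 RPKM) and RHEB (26.5 ± 1.01 RPKM) were the highest genes of the mTOR complexes and their activator, and MTOR itself was at 6.77 ± 0.172 RPKM. EIF4EBP1, a translation repressor that mTOR phosphorylates, had 136, 139.7 and 145 RPKM. The substrate genes GSK3B and FOXO3 were at 19.0 ± 1.19 and 8.39 ± 1.03 RPKM. FOXO3 made up 58.7% ± 3.32 of the summed FOXO level and FOXO1 3.59% ± 0.458. Among lipid phosphatases of the pathway, INPP4B had 97, 57 and 151 counts and INPP5D had 3, 1 and 2.

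Receptor tyrosine kinases pass extracellular signals to PI3K, and 18 of 58 were expressed (31.0%, against 49.3% of all protein-coding genes). ERBB3 had 18.0, 18.0 and 18.7 RPKM, DDR1, a collagen receptor gene, had 16.0, 15.9 and 16.3, and EGFR had 11.96, 12.7 and 12.3. The ephrin receptor genes EPHB4 (11.1 ± 0.483 RPKM) and EPHA3 (10.5 ± 0.355 RPKM) overlapped each other. ERBB2 was at 9.78 ± 0.435 RPKM and FGFR3, the highest of the PDGF, FGF and VEGF receptor group, at 1.81 ± 0.242 RPKM. Silent receptors were KIT, PDGFRA, KDR, TEK, ALK, ROS1, NTRK3, MUSK and EPHA4. MET had 34, 20 and 42 counts and AXL had 2, 0 and 2.

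**Figure D4:**
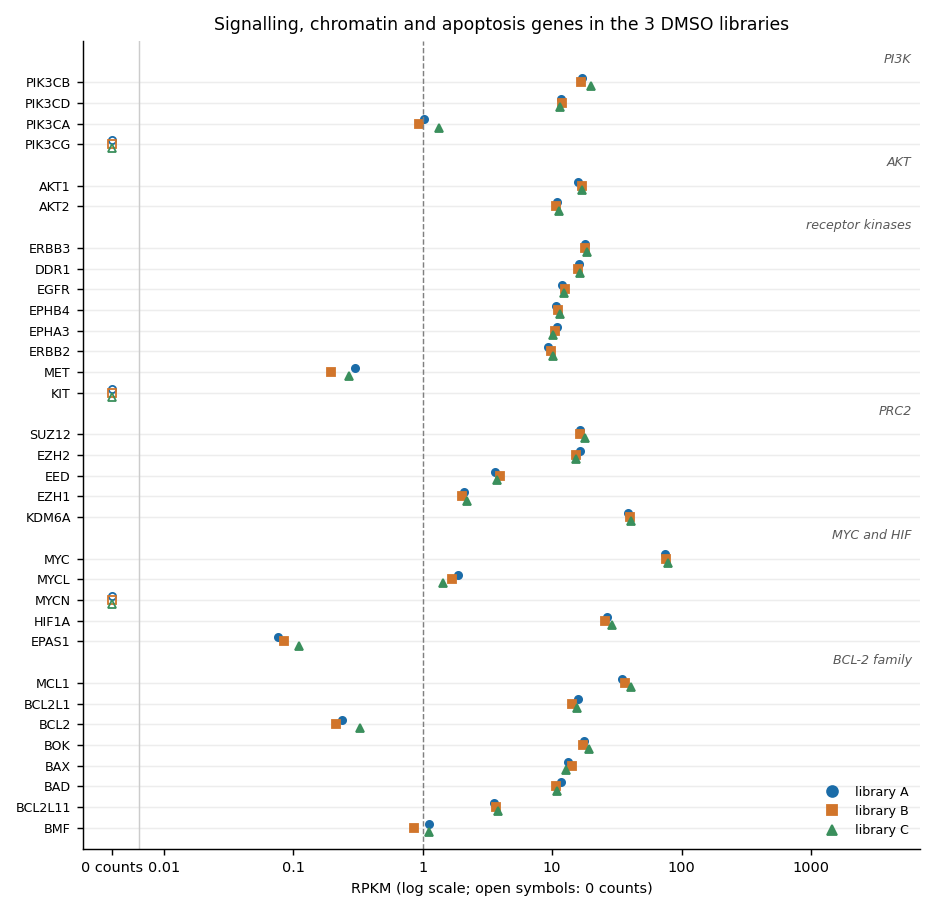
Levels of signalling, chromatin and apoptosis genes in RPKM (x axis, log scale) by gene (y axis) in libraries A, B and C, with open symbols at the left for 0 counts and a dashed line at 1 RPKM. AKT1 and AKT2 lie between 10.7 and 17.1 RPKM, and BMF straddles 1 RPKM.

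The Polycomb repressive complex 2 (PRC2) writes H3K27me3, a repressive histone mark. Of its genes and the opposing demethylase genes, 15 of 17 were expressed (88.2%, against 49.3% of all protein-coding genes). EZH2 (chr7:148807383-148884321), its catalytic subunit, had 16.3, 15.2 and 15.3 RPKM, and the alternative subunit EZH1 was at 2.10 ± 0.0890 RPKM, so that EZH2 made up 88.1% ± 0.660 of the pair. SUZ12 (16.3, 16.3 and 17.8 RPKM) was close to EZH2, whereas EED was lower (3.64, 3.96 and 3.78 RPKM). RBBP4, a histone-binding subunit shared with other complexes, was at 30.7 ± 0.556 RPKM and the highest of the core. With canonical lengths its paralog RBBP7 was (83.2 against 36.8 RPKM). The demethylase gene KDM6A had 38.6, 40.0 and 40.4 RPKM.

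MYC, a driver of ribosome production and metabolism, had 74.1, 76.4 and 79.2 RPKM, its partner MAX had 12.5, 13.6 and 13.1, and MYCN was silent. Of the hypoxia-inducible factors, HIF1A had 26.4, 25.6 and 29.0 RPKM and made up 99.7% ± 0.0443 of the summed level, with EPAS1 at 9, 9 and 18 counts and HIF3A silent. VHL, which marks HIF proteins for destruction, was at 21.7 ± 0.951 RPKM. Of 20 HIF-1 targets outside glycolysis 14 were expressed (70.0%, against 49.3% of all protein-coding genes). These were led by DDIT4 (42.1, 48.5 and 45.9 RPKM), an inhibitor of mTOR, and BNIP3 (34.2 ± 2.05 RPKM), a mitophagy receptor gene, while CA9, a carbonic anhydrase gene used as a marker of hypoxia, had 0, 1 and 1 counts.

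Genes that respond to ATF4 were abundant, with 17 of 18 expressed (94.4%, against 49.3% of all protein-coding genes) and a median of 39.8 RPKM. PSAT1, of serine synthesis, had 339.5, 322 and 345 RPKM, SLC7A5, an amino acid transporter gene, had 110.2, 117 and 120.5, and TRIB3 had 60.9, 58.5 and 65.8. ASNS was much lower (4.28 ± 0.211 RPKM). Of 19 immediate early genes of serum stimulation 10 were expressed (52.6%), close to the 49.3% of all protein-coding genes. Among the others, FOS had 5, 2 and 4 counts, EGR1 had 6, 3 and 4, and EGR2, IER3 and CCN2 (listed as CTGF) were silent. JUND (28.2 ± 0.895 RPKM) and JUNB (18.1 ± 1.99 RPKM) were the highest of the AP-1 genes in that list. All 25 cell cycle genes were expressed, among them PCNA (191 ± 14.4 RPKM), CCNB1 (158 ± 8.67 RPKM) and CCNE1 (5.83 ± 0.681 RPKM).

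BCL-2 proteins set the threshold for apoptosis, and 11 of 17 family genes were expressed (64.7%, against 49.3% of all protein-coding genes). Among prosurvival members MCL1 had 34.9, 36.4 and 40.8 RPKM (60.1% ± 1.87 of their summed level), BCL2L1 had 15.9, 14.3 and 15.5, and BCL2L2 was at 9.25 ± 0.181 RPKM. BCL2 itself was far lower, with 45, 37 and 86 counts (0.417% ± 0.0710 of the level), and BCL2L10 was silent. The effector genes BOK (18.0 ± 0.983 RPKM), BAK1 (13.6 ± 0.602 RPKM) and BAX (13.4 ± 0.712 RPKM) were all expressed. Among BH3-only genes BAD (11.7, 10.8 and 10.9 RPKM) and BIK (10.4 ± 0.696 RPKM) were highest, although BID exceeded BIK with canonical lengths (10.8 RPKM). BCL2L11, which encodes BIM, was at 3.68 ± 0.149 RPKM. BMF (chr15:40087890-40108892) had 1.12, 0.857 and 1.11 RPKM, from 98, 68 and 135 counts, and so missed the threshold for expression in library B alone.

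Of 19 DNA repair and tumour suppressor genes 17 were expressed (89.5%, against 49.3% of all protein-coding genes). The cell cycle inhibitor genes CDKN1B and CDKN1A were at 28.4 ± 1.46 and 23.4 ± 1.37 RPKM.

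HOX genes specify position along the body axis, and 13 of 39 were expressed (33.3%, against 49.3% of all protein-coding genes). HOXB13 was about an order of magnitude above HOXA10 (11.95, 12.2 and 12.1 RPKM) and HOXC13 (12.7, 11.5 and 10.8 RPKM), the highest members of their clusters on deposited lengths. With canonical lengths HOXC6 (17.4 RPKM) exceeded HOXC13. In the HOXD cluster HOXD13 was at 1.30 ± 0.353 RPKM, HOXD8 had 0, 0 and 1 counts and the other 7 genes were silent. HOXB1, HOXB4 and HOXB8 were also silent.

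Of 18 genes named for promoter methylation in prostate cancer 6 were expressed (33.3%, against 49.3% of all protein-coding genes). Silent were 3 of 18 and at or under the floor 6 of 18, near the 21.6% and 30.6% of all protein-coding genes. Methylation itself was not measured here. GSTP1 had 1, 0 and 1 counts, PTGS2, EDNRB and ESR1 had none, and CCND2 had 1, 0 and 1. LDHB (20.04 ± 2.27 RPKM), MGMT (8.996 ± 0.588 RPKM) and TNFRSF10D (8.86 ± 1.25 RPKM) were the highest of this list. With canonical lengths CDKN2A (35.8 RPKM) and RASSF1 (15.5 RPKM) followed LDHB. Interferon-stimulated genes were expressed in 7 of 20 cases (35.0%, against 49.3% of all protein-coding genes). ISG15 (35.4, 32.7 and 27.1 RPKM) was the highest of them, and IFI44L was silent.

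Of 24 cancer-testis genes 7 were expressed (29.2%, against 49.3% of all protein-coding genes), over a wide range. PAGE1 had 422, 407 and 367 RPKM and ranked 61 among nuclear protein-coding genes. MAGEA3 (121, 115 and 117 RPKM), MAGEA1 (112, 109 and 106), MAGEA6 (69.6, 70.5 and 70.1) and MAGEA12 (54.1, 50.5 and 47.0) followed, with PRAME at 26.0 ± 0.3497 RPKM and CTAG2 at 1.95, 1.45 and 2.58. MAGEA10, XAGE1B, SSX1, SSX2 and BRDT lay above the floor and below 1 RPKM. The other 12 of the 24 genes were at or under the floor, against 30.6% of all protein-coding genes. Of these MAGEB2, PAGE5 and CTAG1B were silent, 3 of 24 against 21.6% of all protein-coding genes. MAGEA3 and MAGEA6 are near-identical copies, so the division of reads between them is uncertain.

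Silent genes also formed long runs along the chromosomes. There were 2334 runs of neighbouring silent protein-coding genes with a median length of 1 gene, and 31 runs of 10 or more held 572 of the 4303 silent genes. The longest run comprised 53 genes (chr11:49952391-56989867), of which 50 encode olfactory receptors, and its neighbour on the left in the table is FOLH1 at 243 RPKM. A run of 45 genes (chr17:40993430-41522529) ended beside KRT19 and held 34 keratin-associated protein genes, and another of 33 genes (chr21:30281309-31038476) consisted of keratin-associated protein genes alone. A run of 35 genes (chr1:247524679-248491113) held 32 olfactory receptor genes. A run of 32 genes (chr8:7337115-7977985) held no olfactory receptor gene and 12 genes with a defensin (DEFB) symbol. Across the genome 349 of 386 olfactory receptor genes and 92 of 94 keratin-associated protein genes were silent. OR51E2, a receptor gene named for its expression in prostate and singled out after its values were seen, was among them with 0 counts in each library, and its neighbour OR51E1 had 1, 2 and 9 counts.

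The libraries differed little from each other. The comparison covered 9965 nuclear protein-coding genes with a mean of 1 RPKM or more and at least 30 counts in each library. Their median coefficient of variation (SD over mean) was 5.89%. The coefficient that Poisson counting implies at these counts had a median of 3.7%. Coefficients estimated from 3 libraries under counting alone would have a median below that value. The median observed coefficient was 9.4% in the 25% of genes with the lowest counts and 4.49% in the 25% with the highest. Of these genes 81.5% had a coefficient under 10% and 18 (0.181%) differed more than 2-fold between their highest and lowest library. The mean chi-square per gene between libraries was 4.01 to 7.4, where repeated sampling of reads from 1 library would give about 1. The libraries were counted as 3 samples by their labels, and the chi-square cannot show that they are independent. Libraries A and B were closer to each other (SD of the log2 ratio 0.163) than either was to C (0.180 and 0.182).

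**Figure D5:**
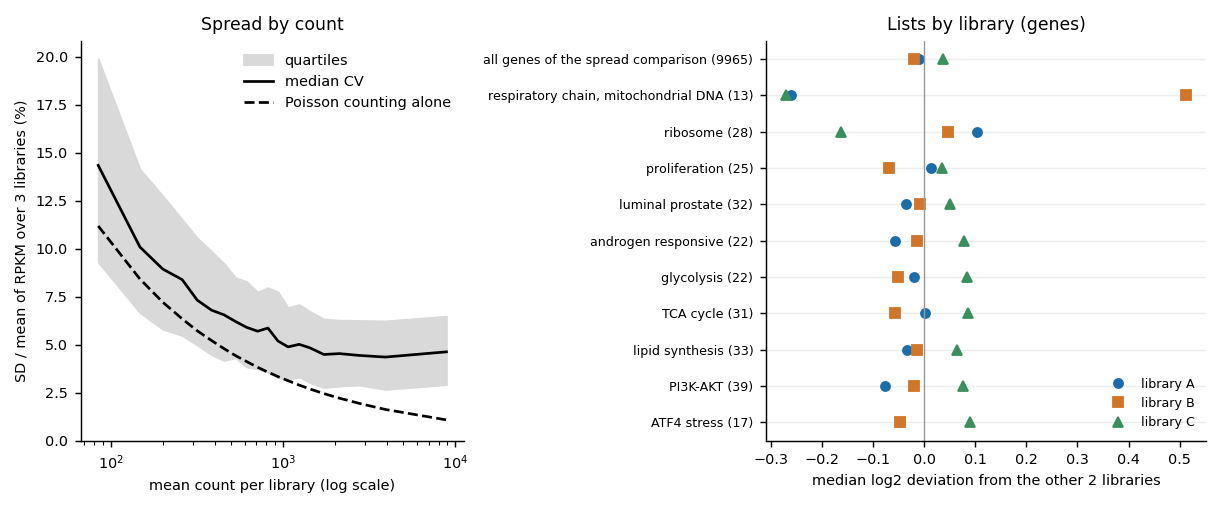
Left, the coefficient of variation of RPKM over the 3 libraries (y axis, %) by mean count (x axis, log scale), with the median as a solid line, the quartiles shaded and the Poisson value dashed, which lies below the median at every count. Right, the median log2 deviation of each library from the mean of the other 2 (x axis) by gene list (y axis, number of genes in parentheses), where the mitochondrially encoded genes of B stand at 0.51 and the ribosome list of C at -0.16.

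Some gene groups departed from this agreement. All 13 mitochondrially encoded subunits were higher in B than in both other libraries, with a median deviation of 0.51 (log2), against 24.4% of all genes compared. The share of all counts in mitochondrially encoded genes, ribosomal RNA genes included, was 2.42% in A, 3.36% in B and 2.37% in C. The ribosomal RNA gene MT-RNR1 had 1193.5, 1289 and 1130 RPKM in A, B and C, and MT-RNR2 had 2599, 3279 and 2424.5. Of 28 genes in the ribosome list 24 were lowest in C, against 28.0% of all genes, with a median deviation of -0.16, as in RPS18 (1666, 1648 and 1315 RPKM) and RPS6 (854, 909.7 and 699.9 RPKM). Deviations also followed gene length. In C the median ran from -0.03 in the shortest 20% of genes to 0.07 in the longest 20%, and in A from 0.05 to -0.05. The part of RNA quality or library preparation in these differences was not tested. HK1, HK2 and FASN were lowest in A.

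The genes furthest from the other libraries included members of near-identical pairs. U2AF1L5 had 95, 863 and 112 counts, EIF3CL had 411, 57 and 363, CBSL had 249, 158 and 55, and SERF1B had 113, 111 and 42. Their partner copies, named after these values were seen, had 55, 70 and 71 counts (U2AF1), 544, 481 and 293 (EIF3C), 999, 1308 and 1429 (CBS), and 20, 24 and 29 (SERF1A). Counting could split reads between such copies, so their single levels are uncertain. The coefficient of variation was 133%, 71.4%, 68.9% and 57.3% for U2AF1L5, EIF3CL, CBSL and SERF1B alone. Summed with the partner copy it was 117%, 37.5%, 21.2% and 47.2%, in the same order. The part of read splitting in these differences was not tested. Genes outside such pairs that were named by the same rule included L3MBTL3, lowest in B with 106, 42 and 146 counts, and STMN3, with 33, 45 and 96.

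Some housekeeping genes with overlapping gene models had low levels. ALDOA, the main aldolase gene of most tissues, stood at only 3.15 ± 0.145 RPKM, between GPI (102 ± 5.66 RPKM) and TPI1 in the order of the pathway, and ALDOC exceeded it at 10.7 ± 0.601 RPKM. ALDOA shares its strand and position with the gene model AC093512.2 (0.75 ± 0.155 RPKM). NDUFV2 (0.231 ± 0.0229 RPKM), EGLN2, SLC39A1 and PIK3R2, with 1, 2 and 1 counts, likewise overlap another model on the same strand. Of 13294 protein-coding genes that overlap no other protein-coding gene 48.0% were expressed. The share was 38.2% of 2105 genes that partly overlap another on the same strand, as ALDOA, EGLN2, SLC39A1 and PIK3R2 do, and 67.7% of 3466 that partly overlap one on the opposite strand. It was 20.5% of 454 genes wholly inside another on the same strand and 31.2% of 619 wholly inside one on the opposite strand. The part of read assignment in these low levels was not tested.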

How the data were processed

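Polyadenylated RNA of the 3 DMSO libraries was analysed from the raw table. The authors aligned reads to hg38 with STAR and deposited whole-number counts per gene from HTSeq, for 58735 genes, with a gene length whose median ratio to the canonical GENCODE v44 transcript was 1.40 in expressed genes. Versions and the annotation release are not given in the sources used here. Libraries were built by a company (Novogene) per the labels, and the sequencing site of each is not given. The deposited DESeq2-normalized values were scaled over all arms and were not used.

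RPKM was computed as count over deposited length per 1000 bases and library total per 1000000, in Python 3.11.15 with pandas 2.3.3. Scaling factors and dispersion came from edgeR 4.0.16 and DESeq2 1.42.0. The steps were tested on simulated data. Gene lists (31 lists, 764 entries, all matched by gene ID) and other members were chosen with earlier results of these data known. Named genes were the 20 highest coding and 5 highest non-coding genes, the highest and silent members of each list, genes of the study, the 5 extremes per library and direction, and the 5 longest silent runs. Transcription factors by level, near-identical copies and genes with overlapping models were added after values were seen. Some genes of the lists are not reported here. Intervals are SDs over libraries, and floors cover counting error only.

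Alternatives were TPM, totals without mitochondrially encoded genes, TMM, DESeq2 size factors, other thresholds, raw counts, canonical transcript length and leaving out each library.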

Additional observations from a re-analysis of the deposited data

How the results depend on the processing

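No paired analysis was possible because only 1 group was described. The number of expressed genes was 8693 at 2 RPKM, 10700 at 0.5 RPKM, 11222 on TPM, 11419 at 1 CPM and 10328 with canonical transcript length (chosen after seeing the data), and 9895 to 9905 without 1 library. Silent genes were 6809 when defined as under 0.1 RPKM, and 4640 to 4733 without 1 library.

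As a share of summed RPKM, the 10 and 100 leading genes took 9.19% and 30.1% and the mitochondrially encoded genes 10.1%, against 5.52%, 20.2% and 2.72% of counts. Without mitochondrially encoded genes the former were 5.23% and 19.3%. Without 1 library the shares were 5.38% to 5.64%, 19.9% to 20.6% and 2.39% to 2.89%. The median coefficient of variation was 4.002% without library C and 5.42% at most without another, against 5.89%. At equal spread a coefficient from fewer libraries has a lower median, so the fall from 5.89% does not by itself show less spread. The common biological coefficient of variation of edgeR was 6.32%. It was 6.82% without A, 6.98% without B and 4.60% without C.

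With raw counts in place of RPKM the isozyme shares were 48.9% for PFKM, 95.9% for LDHA, 52.9% for AKT1, 62.1% for PIK3CB, 82.8% for EZH2, 63.8% for MCL1 and 77.1% for FOXO3. With canonical lengths they were 31.8% for HK2, 93.1% for LDHA, 66.6% for AKT1, 89.4% for EZH2, 57.0% for MCL1 and 54.9% for FOXO3. Each share other than those of PFKM and HK2 was above 50% in every setting. The promoter CpG ratio of the highest class was 0.889 with classes by CPM. Levels of 16 named genes were multiplied by 3.52 on TPM, as a median, and by 0.807 to 4.42 with canonical length. No level below 3 counts in a library could be told from 0 at this depth.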
